A study of Homo sapiens with 8 samples.

Results

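Small nucleolar RNAs (snoRNAs) and the small nucleolar RNA host genes (SNHG) were described across 8 RNA-seq libraries of SW1990, an established human pancreatic adenocarcinoma cell line. Members were the snoRNA genes and the genes named SNHG with a number whose counts summed to at least 40 over all libraries. This rule kept 139 of the 38637 genes listed, namely 115 of 541 snoRNAs and 24 of 28 SNHG genes. Of the snoRNAs left out, 216 were at 0 in every library and 210 had a sum of 1 to 39. SNORA72 and SNORD1C lay just inside the limit with a sum of 40, and SNORD3D, SNORD21 and SNORD18C lay just outside it with 39. The members were chosen by their total count, so their abundance is a description.

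Each of 4 groups held 2 libraries. Vector cells carried the empty vector and EBF2-OE cells overexpressed the transcription factor EBF2. Vehicle cells were mock treated, and GSK-LSD1 cells received GSK-LSD1, an inhibitor of the histone demethylase KDM1A, at a labelled dose of 2000 µM. The labels number the first pair of groups 2 and 3 and the second pair 1 and 2, and do not say whether the libraries came from separate cultures, so p-values measure only the spread between these libraries. The libraries held 20453362 to 27054876 counts on genes. The targeted gene EBF2 stood at 28 counts in Vector 2 and in Vector 3, and at 5818 counts in the EBF2-OE library numbered 2 and 90100 in that numbered 3, so its level differed widely between the EBF2-OE replicates. The epithelial keratins KRT8, KRT18 and KRT7 had 11690 to 71480 counts per library. Other defining epithelial markers were close to 0, with 4 to 20 counts of EPCAM, 7 to 57 of CDH1 and 0 to 21 of KRT19. Of 10 markers of other cell types, CD3E, INS and GCG were at 0 in all libraries and COL1A1 was the highest, with 1419 to 2299 counts.

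snoRNAs are short nuclear RNAs that guide chemical modification of ribosomal and spliceosomal RNA. C/D box snoRNAs (SNORD) direct ribose methylation and H/ACA box snoRNAs (SNORA) direct pseudouridylation. Most human snoRNAs lie in introns of a host gene and are released by trimming of the excised intron, while the spliced exons leave the nucleus. Many hosts encode ribosomal proteins. SNHG genes and GAS5 are hosts whose spliced RNA mostly lacks a long open reading frame, and several of these RNAs begin with a pyrimidine tract and are degraded by nonsense-mediated decay.

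The members comprised 70 SNORD, 45 SNORA and 24 SNHG genes. A host, the gene on the same strand whose span contains the snoRNA, was found for 109 of the 115 snoRNAs. The snoRNAs fell into 66 hosts, with 77 snoRNAs in protein-coding hosts and 29 in long noncoding RNA hosts. Of these, 18 lay in 10 SNHG genes, 9 of which are members. In the canonical transcript of GENCODE v44, 97 of the 109 lay in an intron, 2 overlapped an exon and 8 lay outside the transcript, among them SNORA40 and the other 5 snoRNAs assigned to TAF1D. For 8 snoRNAs more than 1 gene qualified as host, as for SNORA73A and SNORA73B, which lie both in RCC1 and in SNHG3.

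Some of the snoRNAs on which the results turned are shown first, from hg38 at the coordinates of the count table. Capitals mark the C box TGATG and the D box CTGA. RABGGTB, which encodes a subunit of the enzyme that attaches lipid groups to Rab proteins, holds SNORD45C in intron 1 (chr1:75787072-75787149), SNORD45A in intron 2 (chr1:75787889-75787972) and SNORD45B in intron 3 (chr1:75789477-75789547), on the plus strand. SNORD45C had 84.5% identity to SNORD45A, its nearest relative among the snoRNAs listed, and SNORD45B had 75.6% identity to SNORD45C. They are shown because SNORD45C was called and the others of this host were not.
SNORD45C: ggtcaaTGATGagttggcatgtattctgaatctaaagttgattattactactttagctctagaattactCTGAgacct
SNORD45A: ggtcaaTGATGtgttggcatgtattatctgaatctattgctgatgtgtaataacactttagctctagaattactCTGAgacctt
SNORD45B: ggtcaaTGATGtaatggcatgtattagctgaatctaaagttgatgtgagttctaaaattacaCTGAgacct

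SNORA71C in intron 3 of SNHG17 (chr20:38429667-38429804, minus strand) and SNORD74 in intron 1 of GAS5 (chr1:173867674-173867745, minus strand) are shown because they differed between the control groups. In SNORA71C the capitals mark the ACA box.
SNORA71C: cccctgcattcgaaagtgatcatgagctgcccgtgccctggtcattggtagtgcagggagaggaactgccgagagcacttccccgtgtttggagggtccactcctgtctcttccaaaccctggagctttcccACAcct
SNORD74: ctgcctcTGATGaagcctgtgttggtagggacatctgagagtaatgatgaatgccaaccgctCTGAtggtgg

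The box motifs were searched on the transcribed strand near the ends of each RNA. TGATG began within the first 15 bases of 57 of 70 SNORD members (81.4%), and CTGA was present in the last 15 bases of 65 (92.9%). ACA was present in the last 8 bases of 41 of 45 SNORA members (91.1%). In windows of the same length 500 bases upstream, the same searches matched 1.43%, 5.71% and 6.67%. Among the other SNORD listed, TGATG matched 77.0% and CTGA 87.5% of 287, and ACA matched 92.0% of 137 other SNORA.

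snoRNA counts were small in these poly(A)-selected libraries. The 115 snoRNAs together had 1875 to 3214 counts per library, which was 0.00818% to 0.0134% of all gene counts, and the median snoRNA member had 8 to 17 counts. The 24 SNHG genes had 20286 to 40052 counts, or 0.0964% to 0.148%. The 10 highest snoRNAs held 38.9% of the snoRNA counts, and SNHG29 alone held 40.2% of the SNHG counts. The reads are longer than most snoRNAs, so mature snoRNA and unspliced host RNA cannot be told apart in a count.

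The snoRNA with the most counts was SNORA104, which has no host on its strand and lies inside ADGRE3 on the other strand. Its counts were 153 and 185 in Vector, 180 and 167 in EBF2-OE, 205 and 214 in Vehicle, and 158 and 183 in GSK-LSD1. SNORA40 in TAF1D had 183 and 239 counts in Vector, 169 and 233 in EBF2-OE, 159 and 180 in Vehicle, and 137 and 118 in GSK-LSD1. SNORD141A, also without a host, had 120 and 91 counts in Vector, 124 and 102 in EBF2-OE, 188 and 193 in Vehicle, and 144 and 158 in GSK-LSD1. SNORD141A has an identical copy, SNORD141B, so its count is uncertain. It also lacks TGATG near its start. The next were SNORD80 in GAS5, SNORA73A in RCC1, SNORA70 in RPL10, SNORA8 in TAF1D, SNORD31 in SNHG1, SNORD96A in RACK1 and SNORD36A in RPL7A, with 26 to 128 counts per library. None of these 10 snoRNAs was called in any comparison.

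Per length, the medians of mean TPM (counts scaled by gene length and library total) were 15.1 for SNORD, 11.2 for SNORA and 49.1 for SNHG members. By mean TPM SNORA40 was the highest snoRNA, followed by SNORD141A (149.4) and SNORA104 (146.8). Only 2 of 109 snoRNAs had a mean TPM above that of their host, namely SNORA40 (159.0 against 126.8 for TAF1D, whose canonical transcript does not contain it) and SNORD104 (41.8 against 0.826 for SNHG25). SNHG29, the host of SNORD49A, had the highest mean TPM of the members at 496.3. It was followed by SNHG32 at 349.8 and SNHG6 at 312.7. The 10 SNHG genes with the most counts were SNHG29, SNHG32, SNHG6, SNHG3, SNHG1, SNHG7, SNHG16, SNHG17, SNHG15 and SNHG12.

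**Figure D1:**
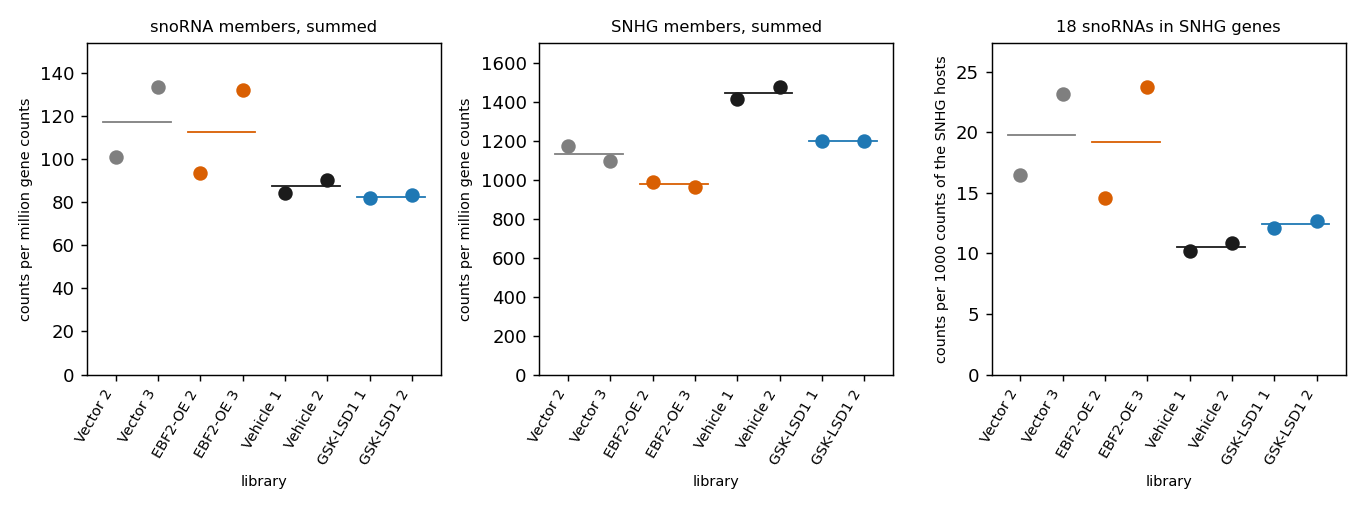
Summed counts of the snoRNA members (left) and of the SNHG members (middle), each as CPM (counts scaled to an equal library total), and counts of the 18 snoRNAs in SNHG genes per 1000 counts of those genes (right), with 1 point per library and the group mean as a line. The Vector 3 and EBF2-OE 3 libraries lie highest in the left panel, and the Vehicle libraries lie highest in the middle panel and lowest in the right one.

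Hosts and snoRNAs were not distributed alike over the libraries, as the plot of summed counts shows. The summed SNHG level was 1173 and 1099 CPM in Vector and 992 and 964 in EBF2-OE, compared with 1419 and 1480 in Vehicle and 1202 and 1199 in GSK-LSD1. The groups did not overlap in this level. The summed snoRNA level was 101.0 and 133.8 CPM in Vector and 93.6 and 132.0 in EBF2-OE, compared with 84.4 and 90.4 in Vehicle and 81.8 and 83.3 in GSK-LSD1. The Vector and EBF2-OE libraries numbered 3 exceeded those numbered 2, by more than either group differed from the other. The library numbered 3 had the higher TPM for 80 of 115 snoRNAs in Vector and for 91 in EBF2-OE, against 74 and 62 for the higher-numbered libraries of Vehicle and GSK-LSD1. SNORD and SNORA had 47.6 to 71.7 and 46.1 to 64.1 CPM in Vector and EBF2-OE, and 41.5 to 47.0 and 39.3 to 43.4 in Vehicle and GSK-LSD1.

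Relative to their hosts, the 109 snoRNAs had 2.41 and 3.41 counts per 1000 host counts in Vector, 2.04 and 3.41 in EBF2-OE, 1.65 and 1.80 in Vehicle, and 1.70 and 1.70 in GSK-LSD1. For the 18 snoRNAs in SNHG genes the values were 16.5 and 23.2 in Vector, 14.6 and 23.8 in EBF2-OE, 10.2 and 10.8 in Vehicle, and 12.1 and 12.7 in GSK-LSD1. The second ratio was lowest in the Vehicle libraries, while the first overlapped between Vehicle and GSK-LSD1. With 2 libraries against 2, an exact permutation test cannot pass the threshold, so these sums carry no test.

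The first comparison asked whether EBF2 overexpression changed the members. No member was called, where a call needs an adjusted p under 0.05 in edgeR's quasi-likelihood test and a change of more than 1.5 times. Of the members, 78 snoRNAs and 24 SNHG genes had enough counts to be tested. None had an unadjusted p under 0.05, and DESeq2 also called 0. Over all 15560 genes 0% were called, and the lowest edgeR adjusted p was 0.208. The overexpressed EBF2 was itself not called. The lack of calls therefore does not show that the members were unchanged.

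The snoRNAs were on either side of no change in EBF2-OE. Their median log2 fold change was -0.09, with 49 of 78 lower, and the median over all genes was 0.00. The typical standard error of a snoRNA was 0.53 on the log2 scale, against 0.19 over all genes. The summed snoRNA level differed by -0.04 on the log2 scale, which was within the replicate spread of 0.34, and its sign turned without Vector 3 (0.20) or without EBF2-OE 2 (0.19).

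SNHG genes were mostly lower in EBF2-OE, without passing the test. Their median log2 fold change was -0.16, with 17 of 24 lower. Both EBF2-OE libraries lay below both Vector libraries for 8 of the 24, against 10.8% of all genes, and above them for 1, SNHG30, against 12.1%. SNHG5 had 409 and 331 counts in EBF2-OE and 556 and 482 in Vector, with a log2 fold change of -0.41 (SE 0.22). SNHG8 and SNHG30 are named here after their values were seen. SNHG8 was 20.5 ± 2.93 CPM (SD, n = 2) in EBF2-OE and 26.8 ± 2.43 in Vector. SNHG7 overlapped between the groups, at 52.7 ± 7.91 and 55.2 ± 6.94. The summed SNHG level was lower by 0.20 on the log2 scale, with a replicate spread of 0.03.

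Hosts of long noncoding type were lower in EBF2-OE for 13 of 14 tested, with a median log2 fold change of -0.25, while 49.1% of all genes were lower. Most of these 14 are SNHG genes, and the 5 others had a median of -0.04. Among the 5 are the read-through genes SENP3-EIF4A1 and ATP6V1G2-DDX39B, whose counts were close to those of EIF4A1 and DDX39B. Those of protein-coding type were lower for 15 of 49, with a median of 0.04. None of these hosts passed the test. The snoRNAs differed from their hosts by a median of -0.005 on the log2 scale with a replicate spread of 0.45, and by -0.37 without EBF2-OE 3 to 0.30 without EBF2-OE 2.

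**Figure D2:**
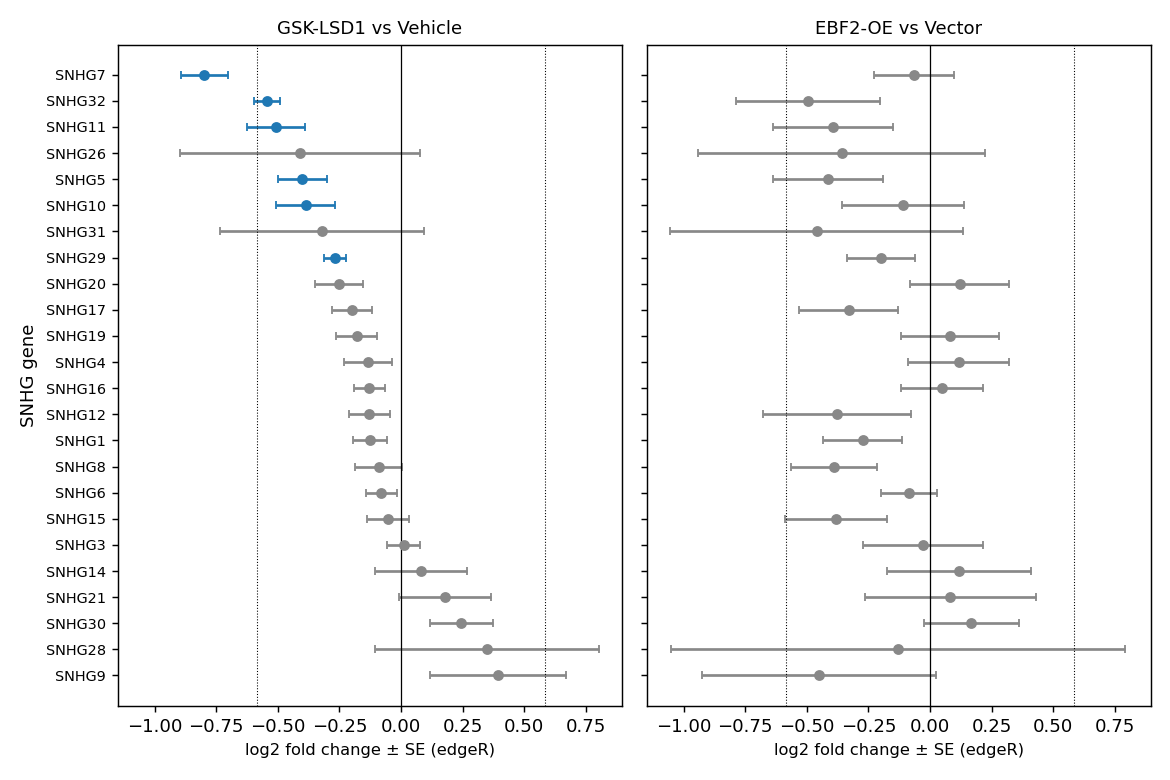
Log2 fold changes of the 24 SNHG genes with standard errors, for GSK-LSD1 against Vehicle (left) and EBF2-OE against Vector (right), with dotted lines at a fold change of 1.5. Blue points have an adjusted p under 0.05, which holds for 6 genes in the left panel, all of them lower in GSK-LSD1, and for none in the right.

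The second comparison asked what GSK-LSD1 changed. SNHG7 and SNORD55 were lower and SNORD45C was higher in GSK-LSD1 than in Vehicle, and these were the 3 members called. Over all 16059 genes 4.57% were called. The tested members were 63 snoRNAs and 24 SNHG genes, so 3 of 87 members were called, near the background.

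SNHG7, a long noncoding RNA gene on chromosome 9, had 1291 and 1394 counts in GSK-LSD1, against 2829 and 2494 in Vehicle. The GSK-LSD1 libraries lay far below the Vehicle libraries, at 59.2 ± 3.77 against 102.9 ± 16.4 CPM (SD, n = 2). The log2 fold change was -0.80 (SE 0.0955, edgeR adjusted p = 3.44e-04). SNHG7 was also called when any of the 4 libraries was left out, but not when all 8 libraries shared 1 fit (edgeR adjusted p = 0.065).

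Most SNHG genes were lower in GSK-LSD1. Of the 24 genes 18 were lower, with a median log2 fold change of -0.13 against -0.01 over all genes. At any fold, 6 passed an adjusted p of 0.05 downward, against 8.87% of all genes, and 0 passed upward, against 9.86%. Both GSK-LSD1 libraries lay below both Vehicle libraries for 11 of the 24, against 30.2% of all genes, and above them for 2, against 30%. The summed SNHG level was lower by 0.27 on the log2 scale, with a replicate spread of 0.02, and was -0.27 also without SNHG29.

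The 6 SNHG genes that fell were SNHG7, SNHG32, SNHG11, SNHG5, SNHG10 and SNHG29. SNHG32, the host of SNORD52, had 2767 and 2624 counts in GSK-LSD1, against 4169 and 4846 in Vehicle (log2 fold change -0.54, SE 0.0522, edgeR adjusted p = 8.81e-05). SNHG29 had 11322 and 11580 counts in GSK-LSD1, against 14805 and 16828 in Vehicle (log2 fold change -0.27, SE 0.0446, edgeR adjusted p = 0.00241). The GSK-LSD1 libraries were below the Vehicle libraries without overlap for each of these genes. SNHG11, SNHG5 and SNHG10, named after their values were seen, had log2 fold changes of -0.51, -0.40 and -0.39. SNHG1, SNHG3, SNHG6, SNHG12 and SNHG15 lay between -0.13 and 0.01 and overlapped between the groups.

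The 6 genes that fell are shown by the 30 bases around their RefSeq start site (GRCh38.p14), from 10 bases upstream, to compare the pyrimidine tracts at which such RNAs may begin. Capitals mark the longest run of C and T that overlaps the bases from 5 upstream to 10 downstream of the start, as far as it lies in the window.
SNHG7: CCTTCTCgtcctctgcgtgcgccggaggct
SNHG32: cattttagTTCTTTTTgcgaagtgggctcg
SNHG29: CCTTTTgtgaggattgggatattccgactc
SNHG11: gctctaggctgcagccgcgCCCCCagccgt
SNHG5: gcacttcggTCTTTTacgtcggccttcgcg
SNHG10: cttatgccggagCCTCatcctactgcctta

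The windows lie at chr9:136728165-136728194 (minus strand) for SNHG7, chr6:31834906-31834935 (plus) for SNHG32, chr17:16438977-16439006 (plus) for SNHG29, chr20:38446644-38446673 (plus) for SNHG11, chr6:85678714-85678743 (minus) for SNHG5 and chr14:95534853-95534882 (minus) for SNHG10. The runs were 11, 8, 13, 5, 6 and 4 bases long, in the order shown. A run of at least 7 was present in 10 of the 21 SNHG members with a RefSeq start (47.6%) and in 17.9% of all 35116 promoters. Among the 6 that fell, SNHG7, SNHG32 and SNHG29 had such a run, and SNHG1, SNHG12 and SNHG16, which did not pass the test, had one too. A run did not have to span the start to be counted. The marked runs of SNHG7 and SNHG29 ended upstream of the start, while those of SNHG32 and SNHG5 spanned it. A shorter, unmarked run in SNHG7 spanned the start as well.

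The long noncoding hosts GAS5, ZFAS1 and EPB41L4A-AS1 were also lower in GSK-LSD1. GAS5 had 2723 and 2700 counts in GSK-LSD1, against 4185 and 4802 in Vehicle (log2 fold change -0.53, SE 0.0496, edgeR adjusted p = 7.38e-05). ZFAS1 had 2470 and 2249 counts in GSK-LSD1, against 3345 and 3862 in Vehicle (log2 fold change -0.41, edgeR adjusted p = 7.48e-04). EPB41L4A-AS1, a host from the list of other snoRNA hosts, passed the fold limit as well, with 759 and 824 counts against 1322 and 1519 (log2 fold change -0.65, edgeR adjusted p = 1.99e-04). Of 14 long noncoding hosts tested, 6 fell and 0 rose at any fold, with a median of -0.17. Over all genes 8.87% fell and 9.86% rose in this way. Besides the SNHG genes already counted, 2 of 5 fell, GAS5 and ZFAS1, and DANCR and both read-through genes did not pass. Of 49 protein-coding hosts, 13 fell and 5 rose at any fold, with a median of -0.05. Among them FASN (log2 fold change 0.93, edgeR adjusted p = 2.19e-05) and LSS (0.88, edgeR adjusted p = 1.04e-05) were called higher. These hosts of SNORD134 and SNORD159 had the largest changes of the 49, and 0 were called lower. Over all genes 4.57% were called.

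Of the snoRNAs in GAS5 or in an SNHG gene that had enough counts to be tested, none passed. GAS5 has 4 snoRNA members, SNORD44, SNORD74, SNORD78 and SNORD80. Together they had 100 and 109 counts in GSK-LSD1, against 89 and 128 in Vehicle, or 36.7 and 40.4 against 21.3 and 26.7 per 1000 GAS5 counts. The snoRNA sum overlapped between the groups while the ratio did not. SNORD52 in SNHG32 had 9 and 9 counts in GSK-LSD1, against 9 and 12 in Vehicle. SNORD49A in SNHG29 had 6 and 7, against 9 and 11. Both fell below the count filter and were not tested. At such counts a change of the size of the host's was not detectable. Over all snoRNAs tested the median log2 fold change was -0.10, with 36 of 63 lower, and the summed level differed by -0.08. The median difference between a snoRNA and its host was 0.01, within the replicate spread of 0.09.

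SNORD55 was the snoRNA called lower in GSK-LSD1. It had 5 and 3 counts in GSK-LSD1, against 42 and 19 in Vehicle, with a log2 fold change of -2.71 (SE 0.612, edgeR adjusted p = 0.0119). The Vehicle libraries were high and also far apart. In the other groups it was low as well, with 3 and 2 counts in Vector and 0 and 7 in EBF2-OE. Of its 81 counts 20 lay outside Vehicle, so it met the limit of 40 only through the group where it was high, and its lower level against Vehicle is favoured by that choice. It was the only called member of which this held.

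SNORD45C was the only member called higher in GSK-LSD1. It had 21 and 18 counts in GSK-LSD1, against 5 and 9 in Vehicle, with a log2 fold change of 1.66 (SE 0.462, edgeR adjusted p = 0.0304). Its host RABGGTB had 1245 and 1197 counts in GSK-LSD1, against 1147 and 1440 in Vehicle (log2 fold change 0.12, SE 0.0733). Of the other RABGGTB snoRNAs, SNORD45B had 10 and 15 counts in GSK-LSD1, against 11 and 1 in Vehicle, and SNORD45A had 4 and 5 against 2 and 11. Neither was separated between the groups.

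Both snoRNA calls rest on few counts: without GSK-LSD1 1, without GSK-LSD1 2 or without Vehicle 1 neither was called, and with all 8 libraries in 1 fit the edgeR adjusted p was 0.223 for SNORD55 and 0.209 for SNORD45C, with log2 fold changes of -2.72 and 1.66. Without 1 library the log2 fold change of SNORD55 ran from -3.23 (without Vehicle 2) to -1.95 (without Vehicle 1), and that of SNORD45C from 1.37 (without Vehicle 1) to 2.06 (without Vehicle 2). DESeq2 gave neither an adjusted p, and with at least 10 counts required in every library neither was tested.

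**Figure D3:**
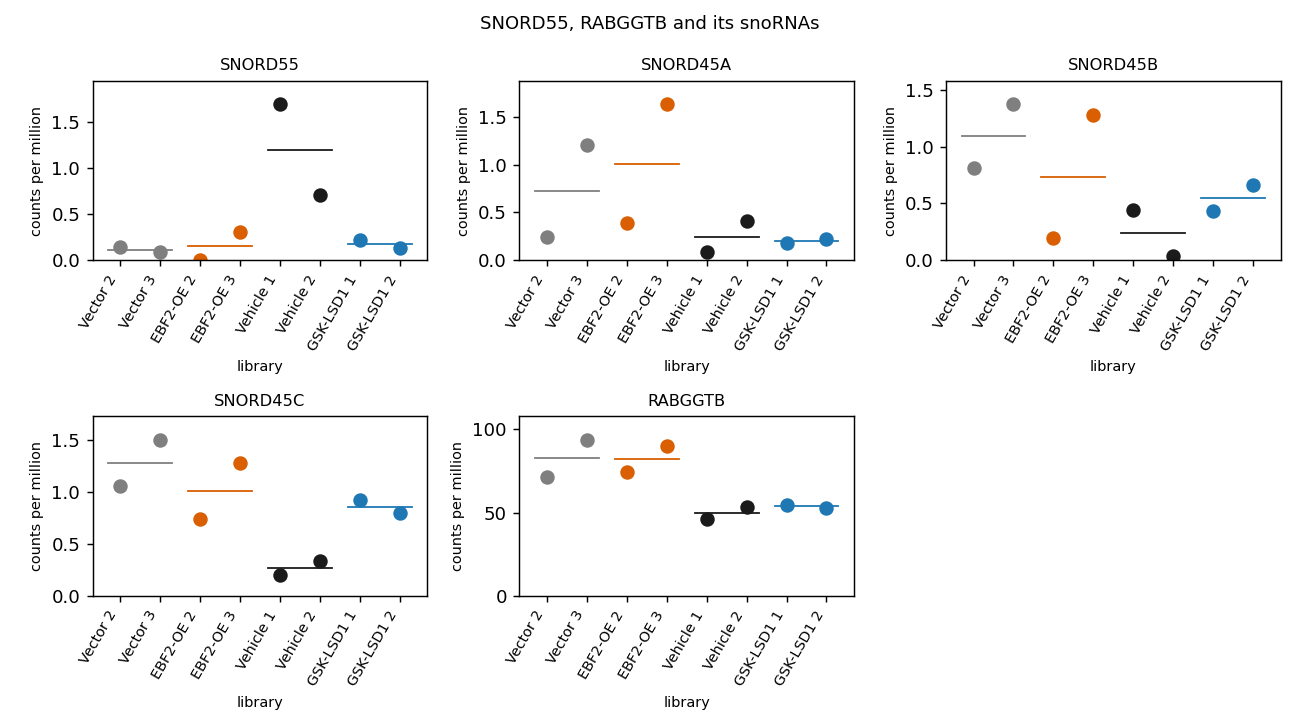
CPM of SNORD55, of the RABGGTB snoRNA members SNORD45A, SNORD45B and SNORD45C, and of RABGGTB, with 1 point per library and the group mean as a line. SNORD55 is high in the 2 Vehicle libraries alone, and SNORD45C is lowest in Vehicle.

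The third comparison, Vector against Vehicle, set the control groups of both experiments side by side. Group and experiment cannot be told apart in it, and it shares the Vehicle libraries with the comparison of GSK-LSD1. snoRNAs were mostly higher in Vector and several SNHG genes were lower. Of 82 snoRNAs and 24 SNHG genes tested, 11 members were called, 7 of them higher and 4 lower in Vector, and over all 16019 genes 16% were called. All 11 calls were lost without Vehicle 1 and likewise without Vehicle 2. The fold changes kept their direction, at -0.70 and -1.03 for SNHG7, -1.11 and -0.96 for SNHG19 and 1.62 and 1.64 for SNORA71C without Vehicle 1 and without Vehicle 2.

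Among the snoRNAs, 69 of 82 were higher in Vector, with a median log2 fold change of 0.55 against 0.00 over all genes. Both Vector libraries lay above both Vehicle libraries for 38, against 35.6% of all genes, and below them for 4, against 35.3%. The medians were 0.69 for SNORD and 0.45 for SNORA. The summed snoRNA level was higher by 0.45 on the log2 scale with a replicate spread of 0.23, and by 0.21 without Vector 3. The snoRNAs exceeded their hosts by a median of 0.54.

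Of the 6 snoRNAs that rose, those with the largest changes were SNORD45C, SNORD3A, SNORA71C, SNORD125 and SNORD74. SNORD45C had 22 and 36 counts in Vector and 5 and 9 in Vehicle (log2 fold change 2.26, SE 0.443, edgeR adjusted p = 0.0212), and its host RABGGTB rose by 0.76 (edgeR adjusted p = 0.026). SNORD3A, the U3 snoRNA of ribosomal RNA cleavage, had 38 and 59 counts against 12 and 22 (log2 fold change 1.74, edgeR adjusted p = 0.0267). It is 99.5% identical to SNORD3B-1, so its count is uncertain. SNORA71C had 47 and 48 counts against 17 and 19 (log2 fold change 1.63, SE 0.286, edgeR adjusted p = 0.0165).

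SNHG17, the host of SNORA71C, was the only SNHG gene that rose in Vector at any fold, with 1017 and 1112 counts against 748 and 876 (log2 fold change 0.63, SE 0.0912, edgeR adjusted p = 0.0119). Together SNORA71A, SNORA71B and SNORA71C had 76.7 and 81.8 counts per 1000 SNHG17 counts in Vector and 45.5 and 47.9 in Vehicle. They had 74.0 and 47.9 in GSK-LSD1 and 75.8 and 86.7 in EBF2-OE. SNORD125 in AP1B1 had 20 and 23 counts in Vector and 10 and 10 in Vehicle (log2 fold change 1.33, edgeR adjusted p = 0.0455). SNORD62B, named after its values were seen, was also called (1.18), and it has an identical copy, SNORD62A.

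SNORD74 in GAS5 had 49 and 54 counts in Vector and 26 and 24 in Vehicle (log2 fold change 1.27, SE 0.275, edgeR adjusted p = 0.0264). GAS5 itself went the other way, with 2600 and 2587 counts against 4185 and 4802 (log2 fold change -0.55, edgeR adjusted p = 0.0139). The other GAS5 snoRNAs did not pass the test, with log2 fold changes of 0.38 for SNORD78, 1.00 for SNORD80 and 1.10 for SNORD44. The 4 GAS5 snoRNAs had 59.6 and 84.3 counts per 1000 GAS5 counts in Vector, 45.9 and 127.0 in EBF2-OE, and 21.3 and 26.7 in Vehicle.

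The members called lower in Vector were SNORD55, SNHG19, SNHG10 and SNHG7. SNORD55, which met the member limit only through Vehicle, had 3 and 2 counts in Vector, no more than the 3 counts taken as the limit of detection. With 3 counts set for each Vector library it was at least 8.78-fold lower than in Vehicle, and at least 5.10-fold lower without Vehicle 1. SNHG19 had 343 and 328 counts in Vector and 733 and 898 in Vehicle (log2 fold change -1.03, SE 0.131, edgeR adjusted p = 0.00976). SNHG10 had 126 and 161 against 355 and 331 (log2 fold change -1.03, SE 0.17, edgeR adjusted p = 0.015).

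SNHG7 had 1069 and 1431 counts in Vector against 2829 and 2494 in Vehicle (log2 fold change -0.87, SE 0.148, edgeR adjusted p = 0.0159). This places SNHG7 high in Vehicle alone, with similar levels in the other groups. At any fold 5 SNHG genes fell, against 13.2% of all genes, and 1 rose, against 13.6%. SNHG29 fell by 0.48 and SNHG6 fell by 0.33 on the log2 scale, below the fold limit. The summed SNHG level was lower by 0.33, and by 0.23 without SNHG29.

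**Figure D4:**
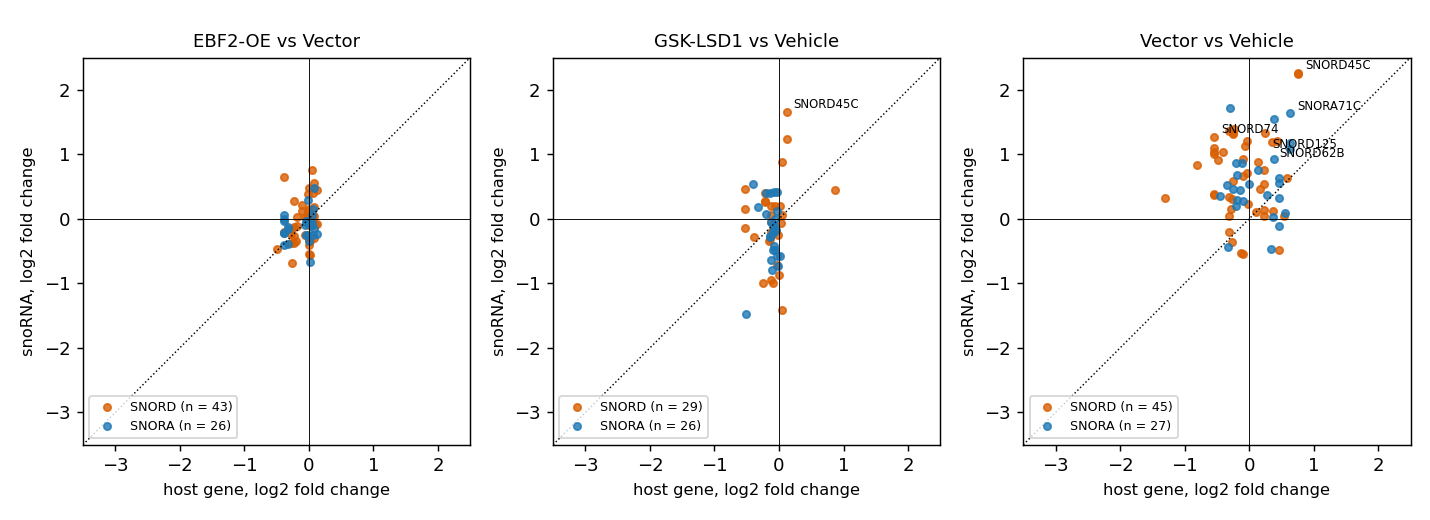
Log2 fold change of each tested snoRNA against that of its host in the 3 comparisons, for snoRNAs whose host was tested and is reported here, with SNORD in orange, SNORA in blue, the called ones named and the line of equal change dotted. Most snoRNAs of the right panel lie above the line, while the host of SNORD45C lies near 0 in the middle panel.

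**Figure D5:**
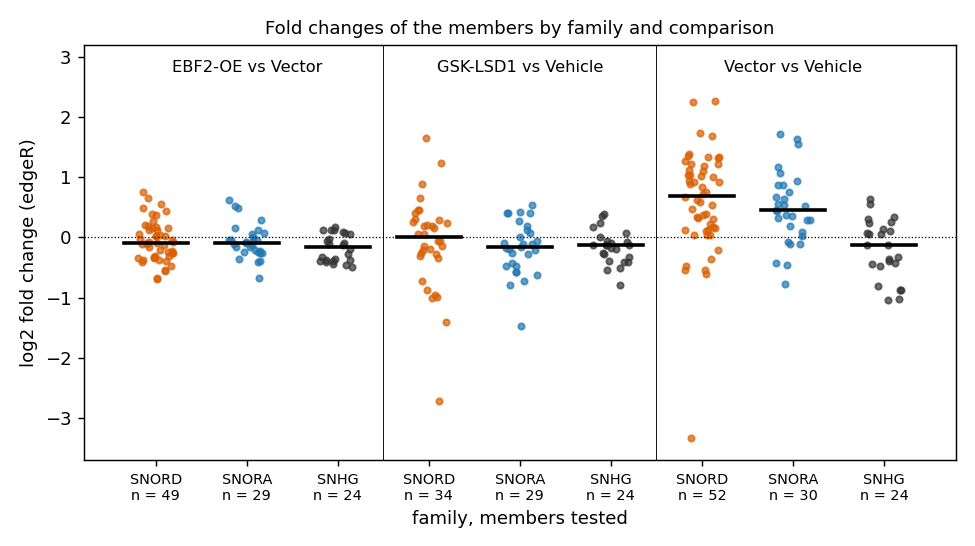
Log2 fold changes of the tested SNORD, SNORA and SNHG members in the 3 comparisons, with 1 point per gene and the median as a bar. The SNORD and SNORA medians of 0.69 and 0.45 in Vector against Vehicle are the only ones away from 0 by more than 0.2.

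The proteins that act on snoRNAs were read from lists written for this purpose. Of the C/D core (FBL, NOP56, NOP58 and SNU13), the H/ACA core (DKC1, GAR1, NHP2 and NOP10), 10 assembly factors, 12 processing and export factors and 10 factors of nonsense-mediated decay, none was called in EBF2-OE or in GSK-LSD1. At any fold, SMG9 and UPF1 of the decay list fell in GSK-LSD1 (-0.46, edgeR adjusted p = 0.00173, and -0.35, edgeR adjusted p = 0.00254), as did the assembly factor NAF1 (-0.29, edgeR adjusted p = 0.0343), and 0 genes of these lists rose. Their list medians lay between -0.16 and -0.06 in EBF2-OE and between -0.04 and 0.15 in GSK-LSD1. In Vector against Vehicle NOP58 rose by 0.69, GAR1 by 0.70 and the decay kinase SMG1 by 0.77, with list medians of 0.18 to 0.42, and the assembly and processing factors were not called. At any fold 3 of the C/D core, 2 of the H/ACA core, 3 assembly, 4 processing and 4 decay factors rose and 0 fell. Over all genes 13.6% rose and 13.2% fell in this way. The list genes were not refitted with a library left out. Of 17 other host genes tested, EPB41L4A-AS1 fell in GSK-LSD1 and in Vector (-1.58), while NCL (0.73) and CCT6P1 (1.03) rose in Vector.

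Other structured RNAs that lack a poly(A) tail were mostly near 0, and RN7SL1 and RN7SL2, RNAs of the signal recognition particle, held 95.8% to 99.2% of their counts. The summed level was 269 and 189 CPM in Vector and 274 and 187 in EBF2-OE, compared with 457 and 574 in Vehicle and 1998 and 505 in GSK-LSD1, so it was lowest in the libraries where the snoRNAs were highest, while RN7SK had 38 and 63 counts in Vector and 44 and 90 in Vehicle. In GSK-LSD1 1 the RNase P RNA RPPH1 had 1805 counts, against 5 to 17 in the other libraries, and RN7SL1 had 22511 counts, against 4294 in GSK-LSD1 2. RPPH1 and RN7SL1 were called higher in GSK-LSD1, and RN7SL1 and RN7SL2 were called lower in Vector. Among the cell type markers KRT7 was called lower in GSK-LSD1, and KRT18, VWF and COL3A1 lower in Vector. The summed levels of markers of other cell types were 75.2 to 108.6 CPM, with the lowest and the highest both in EBF2-OE. The part of these levels in the snoRNA and SNHG results was not tested.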

How the data were processed

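RNA-seq covered 8 poly(A)-selected SW1990 libraries. Paired-end reads were mapped by the authors to hg38 with HISAT2 and counted per gene with HTSeq. The authors deposited raw counts per gene and TPM computed from them. Overlap mode and strand setting are not given in the sources used here, and no strand marking is stated, so genes overlapping on opposite strands cannot be separated.

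Tests on the counts used edgeR 4.0.16 under R 4.3.3 (quasi-likelihood, TMM, filterByExpr with a minimum count of 10), on the 4 libraries of each comparison. Two-sided p-values received the Benjamini-Hochberg adjustment over all genes tested. The standard error was taken from the test statistic. DESeq2 1.42.0, the scaling, the filters, a replicate block, 1 fit of all libraries and leaving out each library were alternatives. Deposited TPM served for levels per length only. Summed levels of single libraries are CPM on total gene counts. Log2 differences between summed levels, and CPM means with an SD of single genes, used library sizes scaled by TMM. Differences between a snoRNA and its host used a prior count of 2 and no filter. The replicate spread of a sum or median is the SD between libraries on the log2 scale.

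The host is the gene on the same strand around the snoRNA with the highest count. Sequences came from hg38, and start sites from RefSeq (GRCh38.p14). Of the 139 members, 135 had the same start and end in RefSeq. Identical copies exist for 4 members, and 17 had another snoRNA above 90% identity, so their counts are uncertain. Python 3.11.15 was used for tables and figures. Tests were tried on simulated data.

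Named members are those called (at most the 12 with the largest change in EBF2-OE or GSK-LSD1 and the 5 in Vector against Vehicle per direction), the 10 snoRNAs and the 10 SNHG genes with the highest count, SNORD55, those at the count limit, hosts, snoRNAs in named SNHG genes, and called list genes. Members and lists were chosen with earlier results of these data known. Results for 1 host gene are not reported here, and the plot of snoRNAs against hosts leaves it out.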

Additional observations from a re-analysis of the deposited data

How the results depend on the processing

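In EBF2-OE against Vector 0 members were called under every alternative, where the main fit did not call EBF2 itself. In GSK-LSD1 against Vehicle, where 3 were called, DESeq2 and a minimum of 10 counts in every library left 1 (SNHG7), 1 fit of all 8 libraries left 0, and unadjusted p-values gave 6. Leaving out 1 library gave 1 to 3, with 1 without GSK-LSD1 1 or without GSK-LSD1 2, and 2 (SNHG7 and SNORD45B) without Vehicle 1. In Vector against Vehicle, where 11 were called, no low-count filter gave 19 and unadjusted p-values gave 24. Leaving out 1 library gave 0 (without Vehicle 1 or without Vehicle 2) to 31 (without Vector 2). Without Vector 3 it was 11, in part other genes. The cause was not tested. A group left with 1 library was assumed to vary like the other group.

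The summed SNHG level in EBF2-OE was -0.22 to -0.16 on the log2 scale without 1 library. In Vector against Vehicle the summed snoRNA level was 0.21 (without Vector 3) to 0.67, the median difference between a snoRNA and its host 0.31 to 0.82, and the summed SNHG level -0.23 without SNHG29, a choice made after seeing the data, as was an SNHG gene or the shortest gene as host. The other 85 values of counts, sums and medians stayed within the replicate spread or 1.5 times the count. In EBF2-OE this spread exceeded the summed snoRNA value, which ran from -0.32 to 0.20 without 1 library.

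For the 14 calls of single genes, 97 of 135 alternatives kept the call, 38 lost it and 0 turned the direction. The alternative of unadjusted p-values could only keep a call, so its 14 values among the 97 carry no information. In 8 more alternatives, DESeq2 or the minimum of 10 counts gave SNORD45C, SNORD55 or SNORD125 no adjusted p, so the call was not made. Of the 38, 22 were Vector against Vehicle without a Vehicle library. A replicate block on the library numbers gave 0 members in EBF2-OE and 3 in GSK-LSD1, SNHG7, SNORD55 and SNORD45C as before. The block was not run for calls of hosts and list genes. The labels do not say that the numbers pair the libraries. The differences between the numbers correlated over genes at 0.31 between Vector and EBF2-OE and at -0.01 between Vehicle and GSK-LSD1. No paired analysis was possible for Vector against Vehicle because these groups share only 1 number. Few counts lay behind most snoRNAs, whose median count per library was 8 to 17.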
